A study of Mus musculus with 16 samples.

Results

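The comparison described here asks what the transcription factor IRF8 changed in 32Dcl.3 cells that already carried C/EBPalpha. 32Dcl.3 is a mouse myeloid progenitor line, grown here with conditioned medium of WEHI-3B cells. Cells carrying both factors were transduced with a retroviral vector for murine IRF8 that also bears the truncated CD8 marker hCD8t (IRF8-CD8) and a vector for murine C/EBPalpha that also bears puromycin resistance (CEBPalpha-puro). The cells they were set against carried the empty CD8 vector, MSCV-CD8, and the same CEBPalpha-puro vector, so both groups carried C/EBPalpha and 2 vectors. RNA was taken on day 3 after transduction. All groups come from 1 cell line, and each factor was expressed from a retroviral MSCV vector. The comparison uses 4 of the 16 arrays of the study, 2 per group from 2 independent experiments, and all 13337 genes that could be tested. The 4 other 32Dcl.3 arrays carried both empty vectors (MSCV-CD8 and MSCV-puro) or IRF8-CD8 with MSCV-puro. They give the effect of IRF8 without the C/EBPalpha vector and share one estimate of the spread with the main comparison. Below, with and without C/EBPalpha refer to this vector, and the cells' own Cebpa level was not determined. The remaining 8 arrays, of sorted mouse bone marrow progenitors with and without Irf8, were not used.

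C/EBPalpha is a basic leucine zipper factor that drives myeloid progenitors into the granulocyte and monocyte lineages, and induces granule protein genes and later neutrophil genes through Cebpe, Gfi1 and Csf3r. IRF8 is an interferon regulatory factor needed for monocytes and for a large part of the dendritic cells. It binds DNA weakly alone and acts through partners, on composite ETS-IRF elements with PU.1 and on interferon-stimulated response elements (ISREs) with other IRFs, and mice without it accumulate neutrophils. MHC class II genes share an upstream module of S, X and Y boxes, bound by RFX, CREB and NF-Y, which recruit the coactivator CIITA.

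The promoters printed here carry a searched motif and belong to genes whose changes are described below. They cover 250 bases before and 50 after the start, from RefSeq on GRCm38.p6, in lower case with the match in capitals. Matches were sought on both strands for the ISRE (GAAA, any 2 bases, GAAA), the ETS-IRF composite (GGAA, any base, TGAAA), the C/EBP motif TTGCNNAA and the Y box CTGATTGG. Overlaps between hits of different motifs were not examined. Of the 24 genes with the largest rises and falls, 16 had a listed promoter and 4 of these held a motif. Ctss is one of the 4 and is shown because it was among the largest rises. Mmrn1 and Ttyh1 also held an ISRE and Acox2 a C/EBP motif, and these 3 genes fell. H2-Eb1 and H2-Aa stand for the MHC class II genes, and Ngp and Ltf for the secondary granule genes; these 4 were chosen after their values were seen.
Ctss, ISRE, chr3:95526536-95526835 (+): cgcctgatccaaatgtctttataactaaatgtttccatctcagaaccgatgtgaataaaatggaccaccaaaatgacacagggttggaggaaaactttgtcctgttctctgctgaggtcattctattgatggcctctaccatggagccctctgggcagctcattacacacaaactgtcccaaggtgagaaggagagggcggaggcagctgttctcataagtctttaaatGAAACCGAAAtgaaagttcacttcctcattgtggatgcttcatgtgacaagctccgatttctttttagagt
H2-Eb1, Y box, chr17:34305617-34305916 (+): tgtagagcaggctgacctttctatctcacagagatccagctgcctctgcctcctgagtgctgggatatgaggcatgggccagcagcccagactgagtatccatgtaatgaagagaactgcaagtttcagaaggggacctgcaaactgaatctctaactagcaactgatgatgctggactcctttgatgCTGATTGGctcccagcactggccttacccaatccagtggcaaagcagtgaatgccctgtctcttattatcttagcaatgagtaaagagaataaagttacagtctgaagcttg
H2-Aa, Y box, chr17:34287774-34288073 (-): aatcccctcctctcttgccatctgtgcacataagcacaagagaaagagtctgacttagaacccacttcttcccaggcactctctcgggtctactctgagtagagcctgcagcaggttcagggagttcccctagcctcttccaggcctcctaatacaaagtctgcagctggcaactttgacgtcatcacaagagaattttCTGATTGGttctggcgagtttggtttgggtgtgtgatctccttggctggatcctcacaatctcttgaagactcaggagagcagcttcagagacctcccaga
Ngp, 2 C/EBP motifs, chr9:110419558-110419857 (+): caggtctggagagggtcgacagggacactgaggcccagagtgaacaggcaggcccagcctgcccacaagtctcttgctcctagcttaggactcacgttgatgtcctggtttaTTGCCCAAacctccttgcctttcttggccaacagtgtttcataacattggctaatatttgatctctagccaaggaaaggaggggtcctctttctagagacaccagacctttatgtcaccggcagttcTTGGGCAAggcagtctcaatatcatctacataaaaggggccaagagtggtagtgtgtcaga
Ltf, C/EBP, chr9:111019042-111019341 (+): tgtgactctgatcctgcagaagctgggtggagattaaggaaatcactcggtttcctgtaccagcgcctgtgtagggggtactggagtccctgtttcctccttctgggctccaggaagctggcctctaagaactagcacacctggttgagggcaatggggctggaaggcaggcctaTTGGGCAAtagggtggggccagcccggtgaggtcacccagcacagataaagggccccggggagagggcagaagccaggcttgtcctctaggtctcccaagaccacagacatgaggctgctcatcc

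The Ctss match lies 21 to 12 bases before the start. The Y boxes of H2-Eb1 and H2-Aa begin 62 and 51 bases before it, and that of H2-Oa, not printed, 46 bases before it. Of the 10 MHC class II genes tested 7 had a listed promoter, and 3 of these held the Y box in this exact spelling. Among 19 late neutrophil genes with a listed promoter 8 held the C/EBP motif, and among 9 primary granule genes with one 2 did. For comparison, the ISRE was in 6.13% of 783 promoters of genes at least 2-fold higher, in 4.03% of 919 of genes at least 2-fold lower and in 3.63% of the 8988 other tested genes. The C/EBP motif was in 12.1%, 13.3% and 10.4% of them, the Y box in 5.75%, 8.71% and 6.1%, and the composite in 0.383%, 1.09% and 0.779%. These shares are descriptions of windows, and no binding was measured.

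The 8 32Dcl.3 arrays lay on 1 slide with 1 scan time. The 75th percentile of the processed signal, a measure of brightness, was 153.8 and 147.3 on the arrays with both factors, 218 and 215 with C/EBPalpha, 367 and 369 with IRF8 and 460.1 and 445 with empty vectors. Between 49.9% and 56.2% of probes were well above background, no spot was saturated, and the 2 arrays of a group correlated at 0.989 to 0.994 across probes. All arrays with IRF8 lay in one column of the slide and all without it in the other, so IRF8 and the slide column cannot be told apart. In bulk RNA, fewer cells of a type and less RNA per cell cannot be told apart. The Irf8 probe was not well above background on any of the 8 arrays. Its processed signal was 1.97 to 2.44 on the 4 arrays with C/EBPalpha and 6.76 to 13.04 on the 4 without it. The Cebpa probe, at 3.03 to 3.98, was likewise never above background. Where these probes lie relative to the cDNAs in the vectors was not determined, so neither checks the vector labels. The myeloid identity was checked on Mpo, Elane and Csf3r, all well above background on all 8 arrays.

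Levels below are relative signals, that is, the processed signal of a gene's probe divided by the 75th percentile of its array. A change is the difference of mean log2 relative signals with its standard error, from 2 arrays per group, so that 1 is a 2-fold rise. A gene rose or fell where limma's adjusted p was under 0.05. At this threshold 9650 genes (72.4%) were called at 2 arrays against 2, 4592 higher (34.4%) and 5058 lower (37.9%). By at least 2-fold, 994 were higher (7.45%) and 1129 lower (8.47%), which became 565 and 2089 by array median and 357 and 698 with normexp background correction. The 2 groups did not overlap in 84.6% of all genes tested. The median change was 0.0016. Scaling each array to its median moved it to -0.35 and gave 1987 higher and 7803 lower, lowering the share of rises among calls from 47.6% to 20.3%. The sign of a rise smaller than this shift depends on the scaling. Values "by array median" below come from that setting. Of the calls 71 were of genes above background in neither group. The standard errors and p-values use a spread per gene that limma pooled over the 4 groups of 2 arrays and moderated across genes. It reflects the difference between the 2 experiments within the groups, and the number of arrays limits the precision. Wherever the values of the arrays are given below for a gene that rose or fell, the lower array of the one group lay above the higher array of the other. Counts of rises and falls in the gene lists below stand against the 34.4% and 37.9% of all genes.

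**Figure D1:**
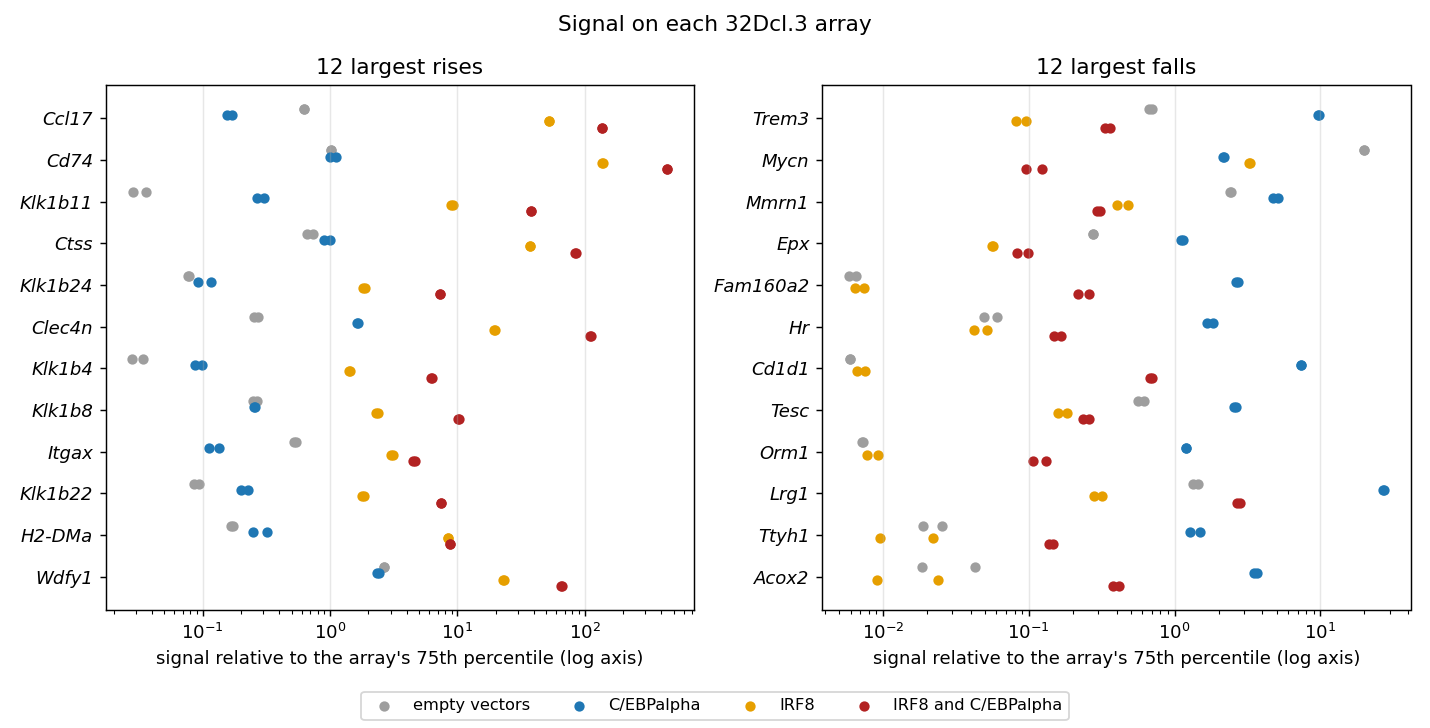
Relative signal (log axis) of the 12 genes with the largest rises, left, and falls, right, whose probes were well above background on each of the 4 arrays compared. Genes whose groups overlap, and symbols of the form Gm plus a number or ending in Rik, were left out. Each point is 1 array, with 2 per group. In each of the 24 genes the arrays with both factors (red) lie apart from those with C/EBPalpha (blue), and for each of the 12 rises the IRF8 arrays (orange) lie above those with C/EBPalpha.

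Of the 38 gene lists, MHC class II antigen presentation had the highest median change. All 10 tested members of the class II list rose (34.4% of all genes did), with a median change of 4.07 against 0.0016 over all genes, and the same 10 rose under each of the other 3 scalings. Ciita, the coactivator on which class II transcription depends, read 0.177 and 0.176 with C/EBPalpha and 1.59 and 1.46 with both factors. That is a change of 3.11 ± 0.133 (limma's adjusted p = 8.44e-10). It was 0.0768 and 0.103 with empty vectors and 0.536 and 0.522 with IRF8, so it was highest where both factors were present.

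H2-Eb1, H2-Ab1 and H2-Aa encode chains of the class II molecules themselves. None was well above background on an array with C/EBPalpha. H2-Eb1 read 0.0130 and 0.0167 with C/EBPalpha against 142 and 144 with both factors, at least 2665-fold higher. The bound replaces each dim signal by that of the faintest probe above background on its array wherever that is higher. H2-Ab1 went from 0.0278 and 0.0202 to 38.8 and 38.1, at least 718-fold, and H2-Aa from 0.0133 and 0.0141 to 4.16 and 3.76, at least 73.8-fold. With IRF8 alone H2-Eb1 read 46.0 and 46.3, H2-Ab1 15.8 and 16.2 and H2-Aa 1.26 and 1.31. All 3 genes were thus well above background with IRF8 in both settings, and higher where C/EBPalpha was present too.

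Cd74, the invariant chain that escorts class II molecules to the endosome, read 1.01 and 1.12 with C/EBPalpha and 441 and 444 with both factors, a change of 8.71 ± 0.042 (limma's adjusted p = 1.03e-17). Ctss, the cathepsin that cuts the invariant chain away, read 1.00 and 0.890 against 85.4 and 83.8 and changed by 6.49 ± 0.0565 (limma's adjusted p = 2.03e-15); its promoter with an ISRE is shown above. H2-DMa, a chain of the molecule that exchanges the invariant chain remnant for peptide, went from 0.247 and 0.317 to 8.73 and 8.68. Its level with IRF8 alone, 8.41 and 8.39, was slightly lower than that with both factors. The partner chain H2-DMb1 rose by 1.21 ± 0.0483 and H2-DMb2 at least 2.84-fold, and the modulators of this exchange, H2-Oa and H2-Ob, by 1.83 ± 0.0464 and 3.18 ± 0.0492.

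MHC class I genes rose by less. Of 20 tested members 17 rose and 2 fell, with a median of 0.79, and 15 rose and 3 fell when arrays were scaled to their median. Nlrc5, the class I counterpart of CIITA, read 1.05 and 1.19 against 3.33 and 3.62 and changed by 1.63 ± 0.0742 (limma's adjusted p = 1.41e-09), although its second probe gave 0.10. H2-M3 changed by 1.20 ± 0.0428, H2-Q4 by 1.15 ± 0.0436 and Psmb9, an immunoproteasome subunit, by 1.09 ± 0.0362. The members that fell were Calr and Pdia3 (-0.66 and -0.42), chaperones of the endoplasmic reticulum that serve many proteins.

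**Figure D2:**
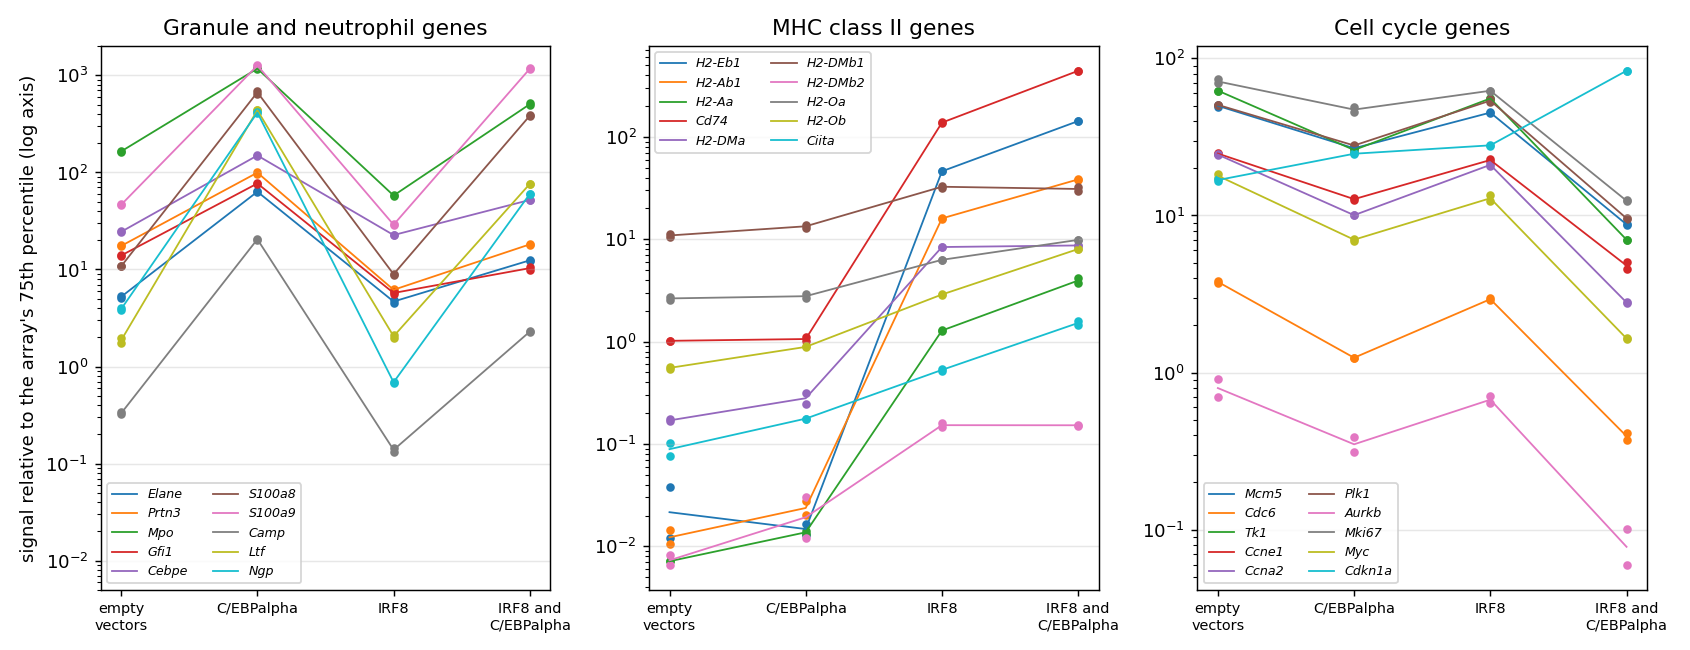
Relative signal (log axis) of granule and neutrophil genes, MHC class II genes and cell cycle genes in the 4 groups of 32Dcl.3 cells. Points are arrays and lines join the geometric means of the 2 arrays of a group. Granule genes such as Elane peak with C/EBPalpha, class II genes such as Cd74 are high in both groups with IRF8, and Cdkn1a alone among the cell cycle genes drawn is highest with both factors.

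The dendritic cell list, which also holds Cd74, had 10 rises and 2 falls among 14 tested genes, with a median of 0.92. By array median 8 rose and 2 fell, with a median of 0.57. Itgax, which encodes the integrin CD11c, read 0.133 and 0.113 with C/EBPalpha and 4.64 and 4.46 with both factors (change 5.22 ± 0.0798, limma's adjusted p = 1.82e-13). Its levels with empty vectors, 0.519 and 0.536, lay above those with C/EBPalpha. Btla (above background on 1 of 2 C/EBPalpha arrays), an inhibitory receptor of lymphocytes and dendritic cells, went from 0.0617 and 0.104 to 1.62 and 1.60, a change of 4.33 ± 0.173. Id2, a repressor of E proteins that dendritic cells need, rose by 1.97 ± 0.0297. Zbtb46, a factor of conventional dendritic cells, rose by 0.80 ± 0.208 (3.35 by its second probe) and Flt3, the receptor of their growth factor, by 0.77 ± 0.293. Flt3 was above background on 1 of 2 C/EBPalpha arrays. Whether Zbtb46 and Flt3 passed by array median is not given here. Runx2 and Tcf4, both factors of plasmacytoid cells, fell by 0.64 ± 0.18 and 0.18 ± 0.0434, although the second probe of Tcf4 gave 0.43. Batf3, which one branch of these cells needs, read 0.31 ± 0.409 (limma's adjusted p = 0.505). Xcr1, Clec9a and Cd209a were not among the genes tested.

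Ccl17, a chemokine that draws CCR4-bearing T cells, had the largest rise of the genes above background on all 4 arrays, Gm and Rik symbols left out. It read 0.171 and 0.155 with C/EBPalpha and 137 and 138 with both factors, a change of 9.72 ± 0.0445 (limma's adjusted p = 1.03e-17). With IRF8 alone it was 52.8 and 52.7, and with empty vectors 0.628 and 0.625, above the C/EBPalpha arrays. In the chemokine and cytokine list, Ccl17 included, 8 of 19 genes rose and 7 fell (median 0.02), against 6 and 10 (median -0.32) by array median. The shares of 42.1% and 36.8% were near those of all genes, 34.4% and 37.9%. Il1b changed by 2.98 ± 0.125, from 0.319 and 0.321 to 2.56 and 2.48. Il6 went from 0.0913 and 0.109 to 0.383 and 0.449 and Ppbp rose at least 4.79-fold. Tnfsf13b, which encodes the B cell survival factor BAFF, went the other way, from 4.48 and 4.68 to 0.941 and 0.966 (change -2.27 ± 0.105).

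Monocyte and macrophage genes rose in 16 of 21 cases, with 3 falls and a median of 0.87. Csf1r, the receptor of the macrophage growth factor, read 14.5 and 13.2 with C/EBPalpha and 146 and 148 with both factors (change 3.41 ± 0.0394, limma's adjusted p = 2.62e-14), and its 3 probes gave 1.54 to 4.24. Mpeg1, a pore-forming protein of macrophages, changed by 2.93 ± 0.0389 and Ccr2, which guides monocytes out of the marrow, by 2.60 ± 0.233. Klf4, a factor of monocyte development, went from 0.455 and 0.481 to 0.910 and 0.806, a change of 0.87 ± 0.0912. It stayed between 0.387 and 0.481 in the other 3 groups. Irf5 went from 1.79 and 1.74 to 4.97 and 5.07, below its level with IRF8 alone, 6.34 and 6.72. Cd14, a coreceptor of TLR4, rose by 0.54 ± 0.0784, a call that was lost when arrays were scaled to their median (limma's adjusted p = 0.0726). Cd36, a scavenger receptor, fell at least 2.55-fold, the mannose receptor gene Mrc1 at least 1.86-fold, and Csf2ra, a chain of the GM-CSF receptor, by 0.77 ± 0.0392. Ly86 and Cx3cr1 were not among the genes tested.

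Lysosomal proteases and their inhibitors split. After Ctss, the proteases that rose most were Ctsk (2.20 ± 0.279), Ctsz (2.03 ± 0.0258) and Lgmn, the asparagine endopeptidase (1.39 ± 0.276), while Ctsw and Ctsf did not pass (0.03 and 0.30). Ctsk and Lgmn were above background on 1 of 2 C/EBPalpha arrays. The secreted inhibitor Cst3 went from 87.1 and 87.9 to 1032 and 1004, a change of 3.54 ± 0.0291 (limma's adjusted p = 1.69e-15). The 4 neutrophil stefin genes tested fell, as did Cst7, a cystatin, by 1.88 ± 0.0359. Stfa3 went from 28.7 and 28.5 to 6.42 and 6.43, although near-identical stefin copies may share signal. Over the whole list of 18 genes 11 rose and 5 fell (median 0.38), against 8 and 7 by array median. Of 37 genes for lysosomal hydrolases, membrane proteins and the proton pump 27 rose and 6 fell (median 0.42). By array median 16 rose and 12 fell, with a median of 0.07. Psap, the precursor of the saposins, stood apart from the rest, from 24.8 and 24.3 to 251 and 254 (change 3.36 ± 0.0289). Lipa, the lysosomal acid lipase, rose by 1.06 ± 0.0708. Arsb, an arylsulfatase, fell by 1.29 ± 0.119.

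Among 28 pattern recognition genes 18 rose and 7 fell (median 0.50), against 14 and 11 by array median. Clec4n, which encodes the fungal receptor dectin-2, read 1.65 and 1.64 with C/EBPalpha and 113 and 110.3 with both factors (change 6.09 ± 0.0406). With IRF8 alone it was 19.3 and 19.8 and with empty vectors 0.252 and 0.270, so the level with both factors was the highest of the 4 groups. Its neighbour in the C-type lectin family, Clec4d, rose by 3.37 ± 0.0634, Nod2, a sensor of bacterial cell walls, by 3.18 ± 0.0915, Tlr6 by 2.36 ± 0.129 and Sting1 by 1.58 ± 0.0299. Tlr4, the receptor of LPS, fell by 1.51 ± 0.0597 and Nod1 by 1.48 ± 0.0593. Of 19 genes for Fc receptors, TREM proteins and their adaptors 10 rose and 9 fell (median 0.30), and by array median 7 and 9 (-0.04). Trem3 had the largest fall of the genes above background on all 4 arrays, Gm and Rik symbols left out. It went from 9.73 and 9.62 to 0.361 and 0.336, while Trem2 rose from 3.00 and 2.75 to 10.6 and 10.3.

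Interferon-stimulated genes were mixed. Of 30 tested 16 rose and 8 fell (median 0.40), which became 12 and 11 (median 0.05) by array median. Oasl2 went from 0.0647 and 0.0548 to 0.394 and 0.452 (change 2.83 ± 0.365), Usp18 rose by 1.82 ± 0.104 and Parp9 by 1.62 ± 0.0445. Oas2, a synthase of the same antiviral family as Oasl2, fell from 0.334 and 0.366 to 0.0919 and 0.0480. Oasl2 was above background on 1 C/EBPalpha array, and Oas2 on 1 array with both factors. Of 14 guanylate-binding and immunity GTPases 8 rose and 3 fell (7 and 5 by array median). Gbp3 read 0.106 and 0.0917 against 1.04 and 1.02 and Gbp5 0.127 and 0.147 against 0.940 and 0.864, while Ifi47 and Gvin1 fell by 1.85 ± 0.0443 and 1.56 ± 0.0384. In the IRF family 5 of 7 genes rose and Irf3 fell (3 and 1 by array median), with Irf9, part of the interferon-activated complex ISGF3, at 1.33 ± 0.0471 and Irf1 at 0.85 ± 0.033. Irf2 changed by 0.47 ± 0.0522 and did not pass by array median (limma's adjusted p = 0.119).

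The tissue kallikrein genes on mouse chromosome 7, which encode near-identical secreted serine proteases, made up 5 of the 12 largest rises. They were looked at as a family after these values were seen. All 14 tested Klk1 and Klk1b genes, one of them a pseudogene, rose, by 1.08 to 7.05 with a median of 5.09. All 14 were above background on both arrays with both factors and 7 on both arrays with C/EBPalpha. The rest were above background on neither C/EBPalpha array, so their changes, and the median, rest in part on dim signals. Their bounds ran from 1.81-fold for the pseudogene to 37.3-fold for Klk1. Klk1b11 read 0.0283 and 0.0357 with empty vectors, 0.268 and 0.300 with C/EBPalpha, 8.95 and 9.19 with IRF8 and 37.8 and 37.7 with both factors (change 7.05 ± 0.094). Klk1b24 changed by 6.15 ± 0.104, Klk1b4 by 6.07 ± 0.111, Klk1b8 by 5.31 ± 0.0603 and Klk1b22 by 5.12 ± 0.0825. Klk1 itself rose at least 37.3-fold. Probes of such similar genes may detect each other's RNA, so how many members rose is uncertain.

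Other genes with large rises had no list in common. Wdfy1, an endosomal protein with a lipid-binding FYVE domain, read 2.35 and 2.44 against 66.6 and 65.0, but its 4 probes ranged from -0.66 to 4.78. P2ry6, a receptor for UDP, rose at least 85.7-fold and Zmynd15, a zinc finger repressor, at least 46.2-fold by its brighter probe, while its second probe gave a log2 change of 3.22. Hmox1, which degrades heme, went from 26.1 and 25.8 to 249.5 and 247 (change 3.26 ± 0.0294). It was listed with the heat shock genes, of which 9 of 10 rose and none fell (median 0.93). By array median 7 rose and 2 fell. Hspb1, a small chaperone, rose at least 3.23-fold, and Hsph1 and Hspe1 rose by 1.99 ± 0.029 and 1.34 ± 0.0271. Between empty vectors and C/EBPalpha, Hsph1 and Hspe1 had changed by -1.29 and -1.34.

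**Figure D3:**
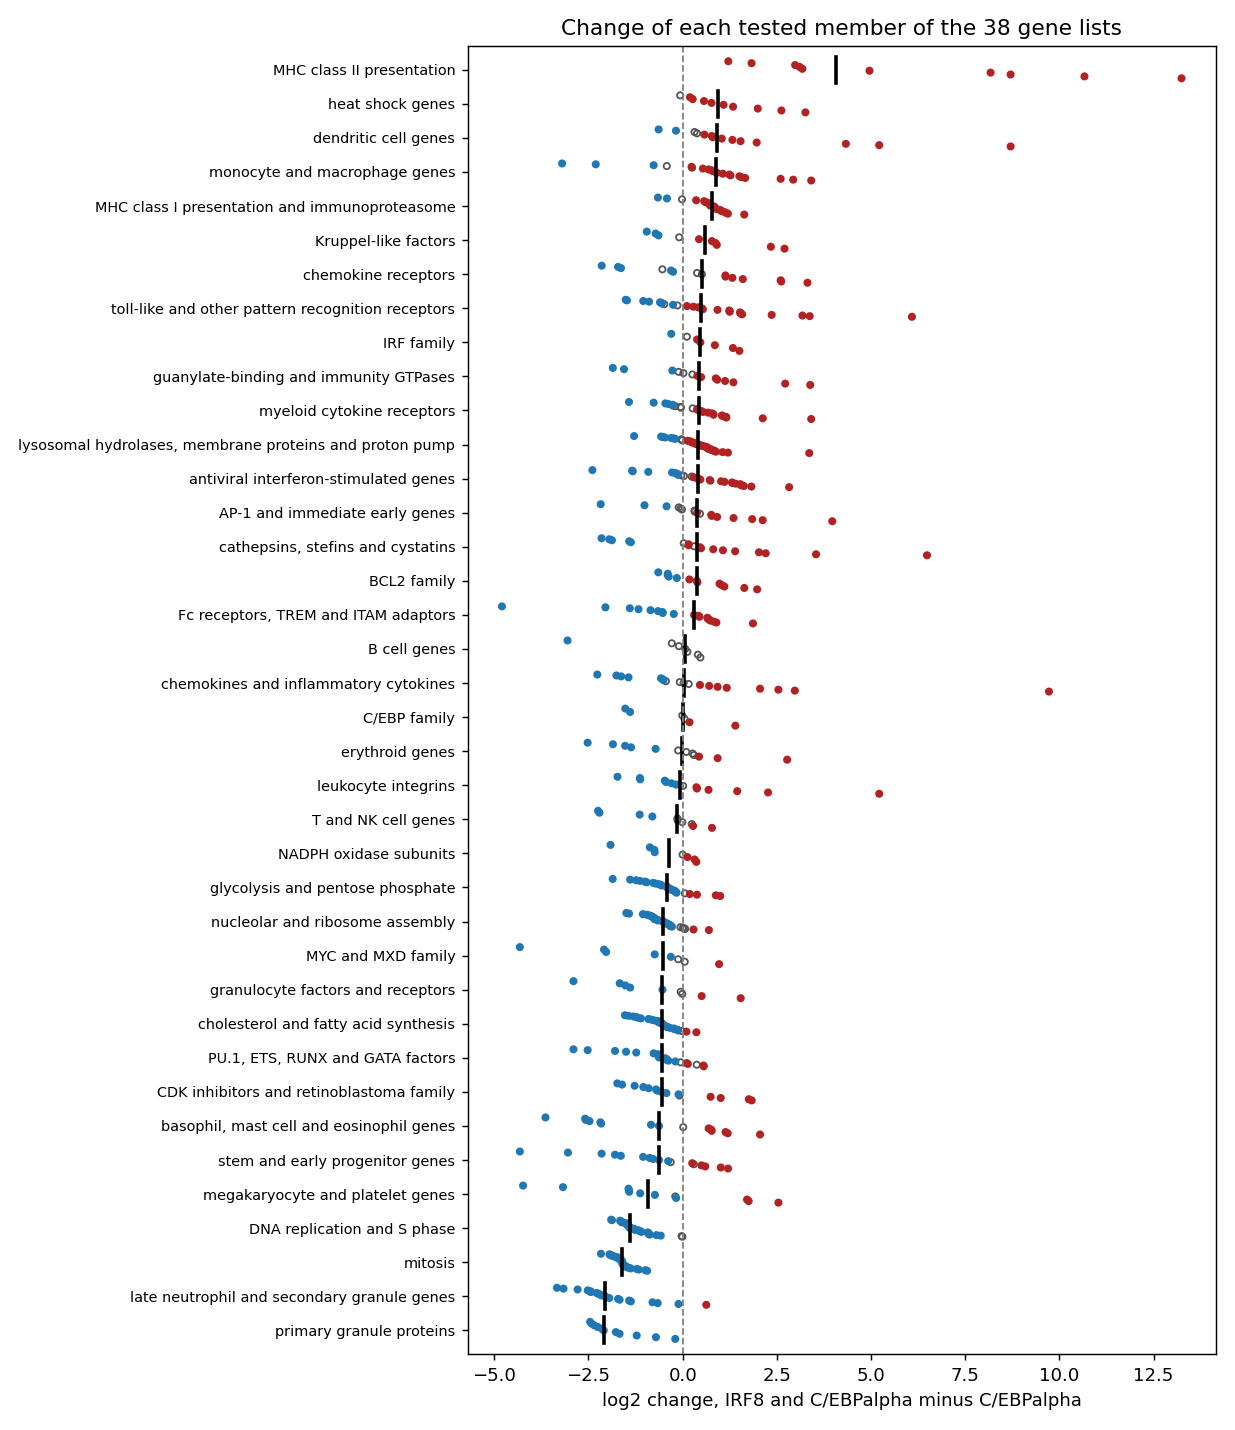
Log2 change between cells with both factors and cells with C/EBPalpha for each tested member of the 38 gene lists, in order of the list median (black bar). Red and blue points passed limma's adjusted p of 0.05 upward and downward, open circles did not, and the dashed line is the median of all genes, 0.0016. MHC class II genes have the highest median, 4.07, and primary granule genes the lowest, -2.09.

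Granule protein genes fell with IRF8. All 11 primary granule genes tested fell (37.9% of all genes did), with a median of -2.09, and 11 fell under each of the other 3 scalings. Set against the empty vectors, C/EBPalpha alone raised all 11 (31.6% of all genes were higher there; median 3.02) and cells with both factors had 7 higher and 3 lower (38% and 46.8% of all genes; median 1.25). These comparisons share arrays with the main one and are given side by side with it.

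Elane, neutrophil elastase, read 5.10 and 5.37 with empty vectors, 63.8 and 62.9 with C/EBPalpha, 4.53 and 4.82 with IRF8 and 12.6 and 12.3 with both factors. The fall was 2.35 ± 0.0382 on the log2 scale (limma's adjusted p = 2.99e-13), and the level stayed above that with empty vectors. Prtn3, proteinase 3, went from 97.4 and 102 to 17.9 and 18.4, close to 17.7 and 17.3 with empty vectors. Mpo, myeloperoxidase, went from 1184 and 1171 to 492 and 519.5, a fall of 1.22 ± 0.0329. Gstm1 fell by 2.42 ± 0.0556 and Prss57, a serine protease of the same granules, by 2.25 ± 0.0387. The lysozyme genes moved least, Lyz2 at -0.71 ± 0.0291 and Lyz1 at -0.20 ± 0.0283.

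Of 21 late neutrophil and secondary granule genes 20 fell and Ifitm6 rose (0.63), with a median of -2.06. The count of falls was 20, 19 and 20 under the other scalings. Camp, the cathelicidin precursor, read 0.336 and 0.323 with empty vectors, 20.2 and 20.8 with C/EBPalpha and 2.30 and 2.28 with both factors, a fall of 3.16 ± 0.0639 (limma's adjusted p = 1.31e-12). Ngp went from 414 and 416 to 60.7 and 59.5, and Ltf, lactoferrin, from 439 and 436 to 76.1 and 76.5; both promoters are shown above. Orm1, an acute phase protein gene, fell by 3.34 ± 0.274. The falls differed widely in size. S100a8, a calcium-binding protein abundant in neutrophils and monocytes, fell by 0.80 ± 0.0379, from 699 and 642 to 392 and 378. Its partner S100a9 read 1259 and 1273 against 1163 and 1183 (-0.11 ± 0.0285), a call that ended when the percentile was taken over probes detected on all 8 arrays (limma's adjusted p = 0.417). Both therefore kept levels far above the 47.1 and 45.9 for S100a9 and 10.8 and 10.8 for S100a8 seen with empty vectors.

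Transcription factors of the granulocyte lineage fell with these genes in part. Gfi1, a repressor that neutrophils need, went from 77.4 and 76.7 to 10.69 and 9.98, below 14.04 and 13.8 with empty vectors (change -2.90 ± 0.04, limma's adjusted p = 9.46e-14). Cebpe, the factor of secondary granule genes, went from 147 and 152 to 51.7 and 52.5, which is above 24.2 and 24.7 with empty vectors. Cebpd fell by 1.39 ± 0.038, and Cebpb read -0.01 ± 0.0289 (limma's adjusted p = 0.794) in the scaling used, and -0.36, 0.07 and 0.07 under the other 3 scalings. Csf3r, the receptor of G-CSF, rose by 0.50 ± 0.0291. Spi1, which encodes PU.1, the partner of IRF8 on composite elements, changed little, from 4.79 and 4.76 to 4.11 and 4.24 (-0.19 ± 0.039). Of 9 granulocyte factors and receptors 2 rose and 5 fell (2 and 7 by array median), and of 22 ETS, RUNX, GATA and related factors 4 rose and 15 fell. Erg fell by 1.79 ± 0.068 and Gata1 at least 3.59-fold. In the Kruppel-like family 6 of 10 rose and 3 fell (5 and 4 by array median), with Klf3 and Klf9 at least 1.57-fold and 2.00-fold higher.

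Other genes of neutrophil function followed no single direction. Cybb, the catalytic subunit of the NADPH oxidase, fell from 0.521 and 0.554 to 0.126 and 0.161, and Hvcn1, Ncf4 and Rac2 by 0.87 ± 0.0288, 0.75 ± 0.0289 and 0.74 ± 0.0294. Rac1, Cyba and Ncf1 rose by 0.13 ± 0.0265, 0.32 ± 0.0281 and 0.36 ± 0.0508, and by array median no gene of this list rose and 6 of 8 fell. Ltb4r1, the receptor of leukotriene B4, fell from 75.6 and 76.95 to 16.9 and 17.5, and the neutrophil chemokine receptor Cxcr2 and the complement receptor C5ar1 by 1.71 ± 0.135 and 1.64 ± 0.421. C5ar1 was above background on 1 of 2 arrays with both factors. In contrast C3ar1, another complement receptor, above background on 1 of 2 C/EBPalpha arrays, rose by 3.31 ± 0.172 and Ccr6 by 2.62 ± 0.386. Among integrins 6 of 14 rose and 7 fell (42.9% and 50%, against 34.4% and 37.9% of all genes), or 4 and 8 by array median. Of the rises Itgax came first, followed by Itga9, at least 2.29-fold higher, and Itgb7 (1.45 ± 0.0303). Myeloid cytokine receptors rose in 15 of 25 cases and fell in 5 (11 and 9 by array median), with Il6ra at 2.13 ± 0.0476 and Il4ra at 1.16 ± 0.0411.

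Large falls outside these lists included Lrg1, a secreted glycoprotein of neutrophils, from 27.0 and 27.2 to 2.68 and 2.80, and Cd1d1, which presents lipids, from 7.38 and 7.36 to 0.675 and 0.695. Mmrn1, a platelet protein, went from 5.08 and 4.76 to 0.294 and 0.307, and Tesc, a calcium-binding protein, from 2.55 and 2.65 to 0.260 and 0.235. Hr, a nuclear corepressor, Ttyh1, a membrane protein of the tweety family, Acox2, a peroxisomal oxidase, and Fam160a2 fell by 3.47 ± 0.171, 3.27 ± 0.337, 3.18 ± 0.413 and 3.50 ± 0.233. These 4 and Cd1d1 read at most 0.0610 with empty vectors and with IRF8 alone. The 6 genes named next were above background on both C/EBPalpha arrays and on neither with both factors and had the largest bounds. Resp18 fell at least 9.29-fold, Afap1 8.83-fold, Tg 7.28-fold, Klra9 6.29-fold, Gstm5 5.68-fold and Lbp, the LPS-binding protein, 5.62-fold.

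Cell cycle genes fell almost without exception. Of 33 DNA replication and S phase genes 31 fell and none rose (median -1.39), and of 30 mitosis genes all 30 fell (median -1.61). Under the other scalings 31 or 32 and 30 fell; 1 replication gene rose when the percentile was taken over detected probes. Tk1, thymidine kinase, read 62.4 and 62.3 with empty vectors, 56.0 and 55.1 with IRF8, 25.3 and 26.9 with C/EBPalpha and 7.004 and 7.02 with both factors (change -1.90 ± 0.0321, limma's adjusted p = 3.89e-13). Mki67, the proliferation marker, went from 48.8 and 45.7 to 12.3 and 12.5 and Kif11, a spindle motor, from 1.82 and 1.63 to 0.508 and 0.431. Aurkb, above background on 1 of 2 arrays with both factors, changed by -2.17 ± 0.216, Cdc25c by -1.94 ± 0.137, Cdc6 by -1.66 ± 0.0587 and Pola1 by -1.64 ± 0.0392. Pole gave -1.88 ± 0.0335 by its brighter probe and 0.25 by the other.

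Without C/EBPalpha, IRF8 moved the same lists far less. There 27 replication genes fell and none rose (25.4% of all genes were lower; median -0.24), and 17 mitosis genes fell and 1 rose (median -0.13). In the test of the difference between the 2 IRF8 effects 30 replication and 29 mitosis genes were lower (31.9% of all genes) and none was higher; by array median, 7710 of all 13337 genes were lower in this test. Cdkn1a, which encodes the inhibitor p21, read 17.0 and 16.6 with empty vectors, 24.6 and 24.9 with C/EBPalpha, 28.1 and 27.8 with IRF8 and 83.3 and 83.5 with both factors (change 1.76 ± 0.0267; the second probe gave 0.50). Btg1, an antiproliferative factor, rose by 1.83 ± 0.046. Gadd45a fell by 1.61 ± 0.0711, from 7.60 and 7.33 to 2.30 and 2.61.

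Myc and Mycn, the growth-promoting factors, fell. Myc read 18.4 and 17.4 with empty vectors, 12.3 and 13.5 with IRF8, 6.91 and 7.12 with C/EBPalpha and 1.65 and 1.65 with both factors (change -2.09 ± 0.0464, limma's adjusted p = 2.77e-12). Mycn read 19.9 and 19.9, 3.28 and 3.25, 2.15 and 2.20 and 0.0955 and 0.124 in the same order, so both genes were lowest with both factors. Mnt, an antagonist of MYC, rose by 0.97 ± 0.0301, and Mxd3, an antagonist found in proliferating cells, fell by 2.03 ± 0.105. Of 31 nucleolar and ribosome assembly genes 25 fell and 2 rose (median -0.51). Rrp1b and Dkc1, the pseudouridine synthase of snoRNPs, fell by 1.49 ± 0.0596 and 1.42 ± 0.0719, and Nop56 and Polr1b by 1.06 ± 0.0303 and 0.96 ± 0.0475.

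Metabolic genes also lay mostly below. Of 28 cholesterol and fatty acid synthesis genes 24 fell and 2 rose (median -0.54). Fads2, a desaturase, changed by -1.53 ± 0.0779, Acaca, acetyl-CoA carboxylase, by -1.30 ± 0.037, Dhcr7 by -1.23 ± 0.0563 and Fdps, from 115 and 116 to 50.3 and 51.4, by -1.18 ± 0.0263. Of 27 glycolysis and pentose phosphate genes 22 fell and 4 rose (median -0.41), with the lactate exporter Slc16a3 at -1.86 ± 0.0744, Hk3 at -1.39 ± 0.0343 and Pfkfb3 at -1.23 ± 0.0477. Tkt fell by 1.13 ± 0.0343. In the BCL2 family 8 of 13 rose and 5 fell, which became 5 and 6 by array median. Those that rose most were of both kinds. The survival genes Bcl2a1d and Mcl1 rose by 1.98 ± 0.0275 and 1.11 ± 0.0284, and the death-promoting genes Bbc3 and Bmf by 1.64 ± 0.0372 and 1.04 ± 0.0674. Among AP-1 and immediate early genes 8 of 17 rose and 3 fell (47.1% and 17.6%, against 34.4% and 37.9% of all genes), or 7 and 6 by array median. Zfp36, which destabilizes cytokine mRNAs, was at least 5.55-fold higher. Ier5 and Junb changed by 2.12 ± 0.0575 and 1.85 ± 0.109, and Dusp2 by -2.18 ± 0.0539.

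Early progenitor genes fell in 10 of 17 cases and rose in 5 (58.8% and 29.4%, against 37.9% and 34.4% of all genes). Besides Mycn, these falls included Angpt1, from 0.789 and 0.719 to 0.0856 and 0.0973, and Myb, a factor of progenitor proliferation, by 1.64 ± 0.0326. Markers of other blood lineages were examined beside these results, and their part in them was not tested. Among B cell genes 7 of 16 could be tested and Cd79b fell, by 3.07 ± 0.0831, while Pax5, Ebf1 and Rag1 were not among the genes tested. The summed relative signal of the tested B cell genes was 2.52 and 2.54 with C/EBPalpha and 1.33 and 1.27 with both factors. Cd79b alone read 1.445 and 1.401 against 0.158 and 0.182, so the fall of this sum is mainly that of 1 gene. For T and NK cell genes, 10 of 18 tested, it was 50.9 and 53.4 against 37.4 and 39.2. Nkg7 alone read 32.15 and 32.22 against 14.71 and 14.49, a larger drop than that of the sum, so the sum does not describe the other members. In this list 2 genes rose and 4 fell (20% and 40%, against 34.4% and 37.9% of all genes). Cd3d and Nkg7 fell by 2.24 ± 0.101 and 1.14 ± 0.0311 (the second probe of Nkg7 gave -2.40), and Gzmb at least 4.23-fold. Erythroid genes, 12 of 17 tested, summed to 15.8 and 16.2 against 16.3 and 16, with 3 rises and 5 falls (25% and 41.7%). In them Hbb-b2, whose near-identical copy may share its signal, rose by 2.77 ± 0.0843, Tfrc and Rhd fell by 1.85 ± 0.0362 and 1.53 ± 0.0507, and Alas2 was not tested.

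Platelet genes and those of basophils, mast cells and eosinophils were examined in the same way. Megakaryocyte and platelet genes, 12 of 13 tested, summed to 65.4 and 66.2 with C/EBPalpha and 35.0 and 35.0 with both factors, with 8 falls and 3 rises. Gp9, a chain of the von Willebrand factor receptor that was above background on 1 of 2 arrays with both factors, went from 1.68 and 1.58 to 0.0882 and 0.0848, Gp1ba fell at least 2.06-fold, and Vwf rose by 1.75 ± 0.0442. Gp1ba read only 0.156 and 0.132 with C/EBPalpha. The falls of Gp9 and Gp1ba are thus small beside the drop of the sum, which comes from members not named here. Basophil, mast cell and eosinophil genes, 15 of 23 tested, summed to 23.2 and 22.9 against 8.66 and 8.54, with 8 falls and 6 rises. Epx, eosinophil peroxidase, fell from 1.11 and 1.15 to 0.0829 and 0.0986 and Mcpt8, a basophil protease, from 14.8 and 14.7 to 2.65 and 2.67. The drop of Mcpt8 makes up most of the drop of the sum. Il6, which is also in this list, rose by 2.05 ± 0.131. Ear2, one of a family of near-identical ribonucleases, fell by 2.59 ± 0.267. Fcer1a and Ms4a2, subunits of the IgE receptor, were not tested.

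Adding IRF8 to cells without the C/EBPalpha vector used the other 4 arrays and gives a comparison that shares none with the main one. There 3023 genes were higher (22.7%) and 3388 lower (25.4%), and past 2-fold the counts were 476 (3.57%) and 204 (1.53%). By array median 2953 were higher and 2039 lower, so which direction held more genes depended on the scaling. Of the genes at least 2-fold higher with C/EBPalpha present, 324 were also at least 2-fold higher without it, which is 32.6% of the one list and 68.1% of the other. For falls the shared number was 131, or 11.6% and 64.2%. Across all 13337 genes the 2 sets of changes correlated at Pearson 0.621 and Spearman 0.514, where genes are not independent replicates and all 8 arrays lay on one slide.

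The difference between the 2 IRF8 effects was tested as an interaction, in which 7429 genes passed (55.7%), 3177 higher (23.8%) and 4252 lower (31.9%). By array median 787 were higher and 7710 lower, and the list counts for this difference were not recomputed in that setting. With probes above background on each of the 8 arrays, the most positive values were those of Il6, Ccl17, Itgax, Lrrc14b, Clec4d and Atp9a, and the most negative those of Lyz2, Trem2, Aldh3b1, Pram1, Ceacam2 and Csprs. The second probe of Atp9a changed by 0.20 with C/EBPalpha present, against 3.49 for the probe used. Ccl17 rose by 6.40 ± 0.0445 without C/EBPalpha and by 9.72 with it, a difference of 3.32 ± 0.063. Itgax rose by 2.55 ± 0.0798 and 5.22. Trem2 rose in both settings, by 5.06 ± 0.0577 without C/EBPalpha and by 1.87 with it. Csprs rose by 2.99 ± 0.0912 without C/EBPalpha and read 0.19 ± 0.0912 with it (limma's adjusted p = 0.0775).

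Some genes moved in opposite directions. Il6 fell without C/EBPalpha, from 0.789 and 0.772 to 0.151 and 0.142, and rose with it. Lyz2, lysozyme, rose from 1.44 and 1.47 to 8.41 and 8.51 without C/EBPalpha and fell from 127 and 130.1 to 79.0 and 78.0 with it. In this gene the level with both factors was still far above that with IRF8 alone. Pram1, an adaptor of neutrophil signalling, rose from 3.35 and 3.46 to 7.95 and 7.91 and fell from 78.6 and 75.4 to 25.3 and 24.9. Tnfsf13b rose from 0.0288 and 0.0329 to 0.120 and 0.130 and fell, as given above. Class II genes differed less by their list. In the interaction 6 of 10 were higher and 2 lower, with a median of 0.55, whereas 10 of 11 primary granule genes and 19 of 21 late neutrophil genes were lower.

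**Figure D4:**
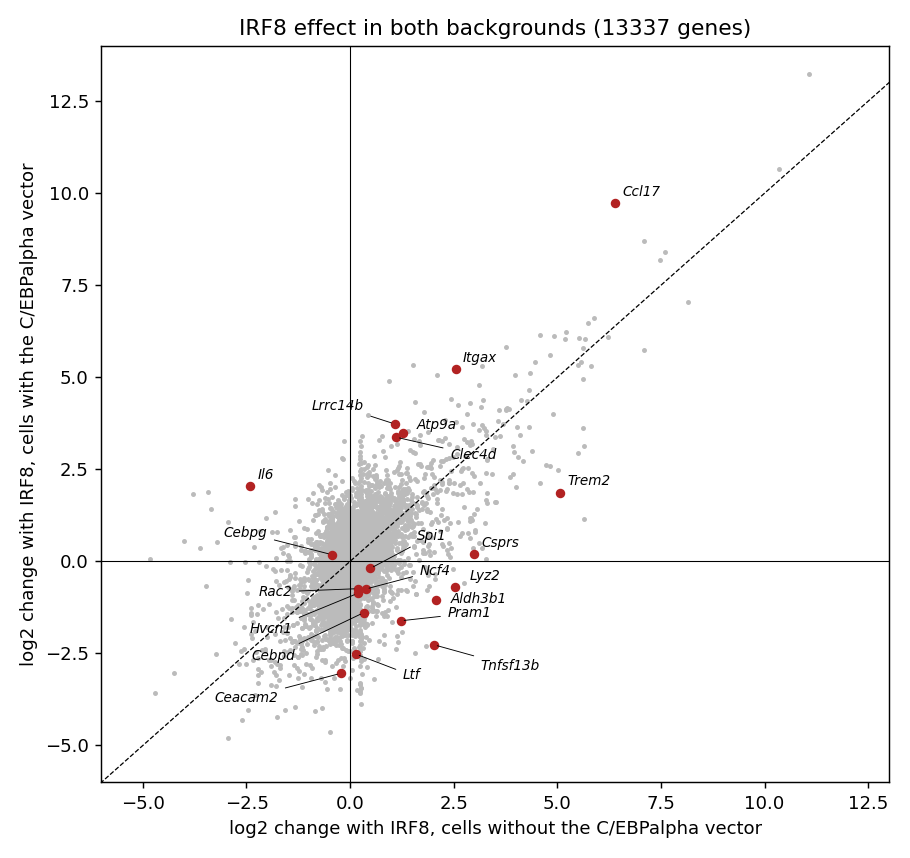
Log2 change on adding IRF8 to cells without (horizontal axis) and with (vertical axis) the C/EBPalpha vector, for 13337 genes, with the dashed line marking equal changes. Red points are the 20 named genes whose IRF8 effects differ most or have opposite signs past the threshold; Il6, Tnfsf13b and Lyz2 lie far from the line, and Ccl17 rises in both settings.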

How the data were processed

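Total RNA was labelled with Cy3 and hybridised to 1-colour Agilent mouse arrays, per the labels' protocols, and Agilent Feature Extraction 10.7.3.1 was used, per the submitters' processing notes. The deposited intensity values are its background-subtracted processed signals, per the file headers. The members and gene lists were chosen with earlier results of these data known.

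Control and outlier spots were left out, spots of a probe averaged, and log2 signals scaled to the 75th percentile of each array. Probes well above background on both arrays of at least 1 of 4 groups were used, and a gene was represented by its brightest probe. limma 3.58.1 (R 4.3.3) fitted 4 group means to 8 arrays, with an intensity trend and two-sided Benjamini-Hochberg adjusted p over 13337 genes. Of 55681 probes 26762 had 1 gene symbol and 28919 none. In simulated data with 200 changed genes of 13337 the test recovered 84% of those changed by 1 on the log2 scale, with 12 false calls. Far fewer genes were changed there than the 72.4% called here, so it does not give the recovery in these data. The genes to be named were the 12 largest rises and falls among genes above background on all 4 arrays whose groups did not overlap. Symbols of the form Gm plus a number, or ending in Rik, were left out of these. Also named were the 6 largest bounds each way and the 4 largest changes of each list. The 6 most extreme interactions each way were taken among genes above background on all 8 arrays. A further 20 genes were given by name, among them Klf4, Irf5, Gfi1, Spi1, Myc, Ly86 and Ctsh, of which Ly86 and Ctsh were not tested. Chosen after their values were seen were the kallikreins and Batf3, C5ar1, Calr, Csf2ra, Cst7, Ctsf, Ctsw, Ctsz, Cxcr2, Cyba, Flt3, H2-DMb1, H2-DMb2, H2-Oa, H2-Ob, Ifitm6, Irf3, Lgmn, Lyz1, Mrc1, Myb, Ncf1, Nod1, Pdia3, Rac1, Runx2, Sting1, Tcf4, Tlr4 and Zbtb46.

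Per the labels, the numbers 1 and 2 mark independent experiments. Same-numbered arrays did not deviate together (residual correlations -0.0649 to 0.0536), and the main fit has no block. Alternatives covered scaling, background, dim probes, several probes per gene, the variance model, the block and each array left out.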

Additional observations from a re-analysis of the deposited data

Results flagged for a closer look

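In 20 named genes the effect of IRF8 with C/EBPalpha differed from that without it, by an interaction term in the same limma fit (adjusted p between 1.08e-12 and 0.000133). They include the 6 most extreme interactions each way among genes above background on all 8 arrays. The others are named genes whose 2 effects passed with opposite signs. Some named genes outside this set, such as Cd1d1 (-3.68 ± 0.239) and Zfp36 (3.55 ± 0.366), had larger differences than most genes in it. With 159 of 180 named genes past the threshold for this term, such a difference was common here. Each value below is the log2 effect with C/EBPalpha minus the effect without it, from 2 arrays per group.

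The difference was positive for Il6 (4.47 ± 0.186), Ccl17 (3.32 ± 0.063), Itgax (2.67 ± 0.113), Lrrc14b (2.65 ± 0.124), Clec4d (2.26 ± 0.0897), Atp9a (2.225 ± 0.0562) and Cebpg (0.62 ± 0.0935). For Il6 and Cebpg the effects had opposite signs, at 2.05 and 0.18 with C/EBPalpha and -2.42 and -0.44 without it. By array median the effect on Cebpg with C/EBPalpha was -0.17 (limma's adjusted p = 0.0523), and its call was lost without array 1 of either group, so its opposite sign depends on the scaling. The value of Atp9a rests on one of its 2 probes, which changed by 3.49 with C/EBPalpha, while the other changed by 0.20.

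Negative differences with opposite signs were found in 10 genes, all lower with C/EBPalpha present and higher without it. They were Spi1 (-0.68 ± 0.0551), Rac2 (-0.92 ± 0.0416), Hvcn1 (-1.05 ± 0.0408), Ncf4 (-1.13 ± 0.0408), Cebpd (-1.72 ± 0.0537), Ltf (-2.66 ± 0.0694), Pram1 (-2.83 ± 0.0452), Aldh3b1 (-3.13 ± 0.0946), Lyz2 (-3.25 ± 0.0411) and Tnfsf13b (-4.29 ± 0.148). The effect without C/EBPalpha was small for Ltf (0.14 ± 0.0491), Rac2 (0.18 ± 0.0294) and Hvcn1 (0.18 ± 0.0288). Trem2 (-3.20 ± 0.0816) rose in both settings and Ceacam2 (-2.82 ± 0.0979) fell in both. Csprs (-2.80 ± 0.129) rose without C/EBPalpha and did not pass with it. Among all 13337 genes, 802 passed with opposite signs and a difference past the threshold.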

How the results depend on the processing

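Of 180 named genes tested, 168 kept direction and side of the threshold under every alternative that could fit them. With arrays scaled to their median, 1987 genes were higher and 7803 lower in the main comparison, 565 and 2089 by at least 2-fold. In that setting IRF8 against empty vectors had 2039 lower, the interaction 787 higher and 7710 lower, and both factors and C/EBPalpha against empty vectors had 2498 and 2676 higher. The log2 shift of the median of all genes, -0.35, is the size by which that scaling moved the changes of the main comparison. Genes at least 2-fold higher numbered 357 with normexp background correction (698 lower), 1499 with no filter on dim probes and 604 with only probes above background on all 8 arrays, which tests fewer genes; the cause of the normexp change was not tested.

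Reversed named genes were Cebpg by array median (-0.17), Ccnd1 (0.0701), Cd8a (0.144) and Itgb5 (0.0443) with normexp, and Cd8a with dim signals raised (0.0546). The adjusted p of limma for these 5 values was 0.0523, 0.458, 0.103, 0.574 and 0.847. Spi1 was not called in the deposited series values (-0.07, adjusted p of limma 0.103).

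With the replicate block 4573 genes were higher and 5046 lower, 9559 of them among the 9650 called without it, and no named call changed. Leaving out each array in turn gave 4190 to 4541 higher and 4812 to 5020 lower, 971 to 1038 and 1117 to 1139 by at least 2-fold. The ranges were 2562 to 3037 and 2578 to 3545 for IRF8 against empty vectors, and 2734 to 3033 and 3899 to 4195 for the interaction. Against empty vectors they were 4751 to 5103 and 5999 to 6266 for both factors, and 3881 to 4277 and 5997 to 6372 for C/EBPalpha. The call of Cebpg was lost without array 1 of C/EBPalpha or of both factors, those of Ccnd1 and Itgb5 without array 1 of both factors, and that of Cd8a without any of 5 arrays; Csprs gained a call without either empty-vector array. Signal over background limits 199 higher and 154 lower genes, measured in only one of the groups, to a bound.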
